A study of Drosophila melanogaster with 4 samples.

Results

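Hsc70-3 and Gp93 are the main chaperones of the lumen of the endoplasmic reticulum (ER) in Drosophila. Hsc70-3 is the fly BiP, the Hsp70 of this compartment, and Gp93 is the fly GRP94, its Hsp90. Both genes were taken from the deposited table of read counts by their symbols, which gave 2 of the 2049 genes with a row. The libraries came from S2 cells, a line derived from Drosophila embryos. The cells were kept for 4 h in Krebs Ringer Bicarbonate (KRB), a bicarbonate-buffered salt solution, or for the same 4 h in Schneider's medium, the serum-supplemented medium that these cells are grown in. Each medium had 2 biological replicates, 4 libraries in all, and no allele or transgene was involved. KRB lacks both amino acids and serum and contains more sodium than Schneider's medium, and these differences cannot be told apart in the comparison. The identity of the line was not checked against marker genes, since the table holds a selection of genes.

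Proteins that are secreted or inserted into membranes fold in the ER. Hsc70-3 binds unfolded stretches of such proteins and uses ATP to release them, and it also holds the ER stress sensors inactive as long as few unfolded clients compete for it. Gp93 acts later in folding, on a narrower set of clients. When unfolded proteins build up, the sensors Ire1, PEK and Atf6 switch on the unfolded protein response (UPR), and Ire1 splices the RNA of the transcription factor Xbp1. In animal cells, the genes for BiP and GRP94 are classical targets of this response. The study investigated whether KRB elicits ER stress, and the RNA levels of both chaperones bear on this question.

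Hsc70-3 (FBgn0001218) lies on the minus strand of chromosome X from 11801696 to 11807117 in BDGP6, the assembly with dm6 coordinates. Its 5 annotated transcripts have 2 or 3 exons and cover 3589 nt of exon in all. Gp93 (FBgn0039562) lies on the plus strand of 3R from 27948711 to 27952151 and has 1 annotated transcript of 5 exons and 2841 nt. No annotated gene overlaps Hsc70-3. The last 101 nt of Gp93, 3.56% of its exon length, overlap an exon of CG4951 on the other strand. The library kit keeps the strand of a read, but the use of strand in counting is not given in the sources used here, so reads of CG4951 in this stretch could have been counted for Gp93. CG4951 itself has no row and was not analysed here, and reads shared between Hsc70-3 and other Hsp70 genes were not tested for.

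Both chaperone RNAs were higher in cells in KRB. Hsc70-3 rose 2.44-fold and Gp93 rose 2.25-fold, as ratios of mean normalized counts. For each gene, the lower KRB library stood above the higher Schneider's library, in a table whose rows were selected for change between these libraries. These sizes hold for counts scaled with TMM, edgeR's method of comparing libraries over the listed genes. TMM presumes that most compared genes are unchanged, while these rows were all selected for change. The sizes shrank below the threshold of the test when the libraries were scaled by total counts, here the reads on the tested genes.

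Hsc70-3 had 45759 and 69746 reads in KRB replicates 1 and 2, against 19911 and 50645 reads in Schneider's replicates 1 and 2. After scaling, these counts were 61911 and 70977 in KRB, against 24314 and 30121 in Schneider's medium. The groups did not overlap, and the lower KRB library stood 2.06-fold above the higher Schneider's library. The mean normalized count was 66444 ± 6411 in KRB and 27218 ± 4106 in Schneider's medium (SD, n = 2 each). The log2 fold change was 1.29 (standard error 0.22) at an adjusted p of 0.00266 in the quasi-likelihood test of edgeR, with p adjusted after Benjamini and Hochberg over all tested genes.

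Gp93 had 10275 and 10092 reads in KRB replicates 1 and 2, against 4012 and 9800 reads in Schneider's replicates 1 and 2. After scaling, these were 13902 and 10270 normalized counts in KRB, against 4899 and 5829 in Schneider's medium. The groups again did not overlap, but the KRB libraries lay further apart than for Hsc70-3, and the lower of them was 1.76-fold above the higher Schneider's library. The mean normalized count was 12086 ± 2568 in KRB and 5364 ± 657 in Schneider's medium (SD, n = 2 each). The log2 fold change was 1.17 (standard error 0.21), with an adjusted p of 0.00315 in the same edgeR test.

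**Figure D1:**
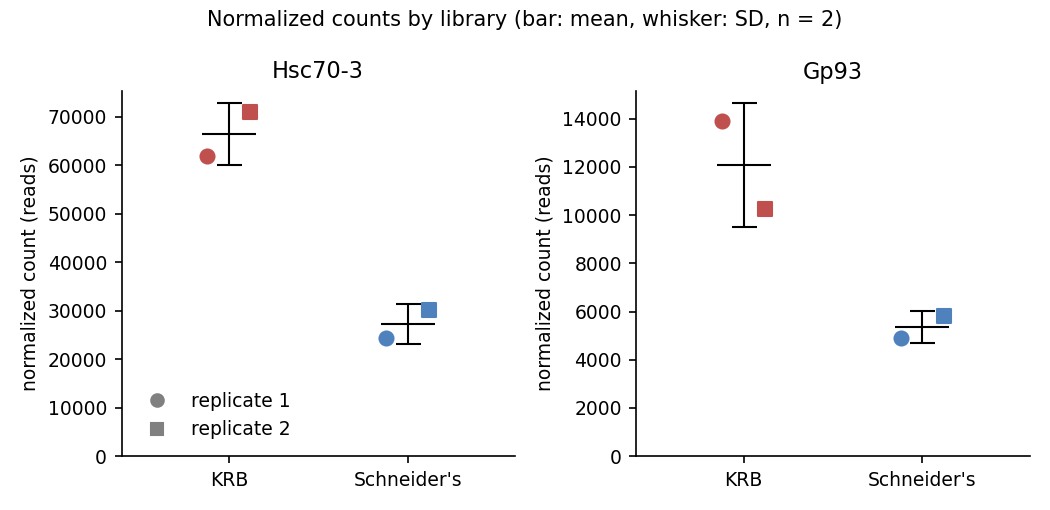
Normalized counts (reads, linear axes from 0) of Hsc70-3 and Gp93 in each KRB and Schneider's library, with the mean and SD of 2 replicates. The KRB libraries lie at 61911 and 70977 for Hsc70-3 and at 13902 and 10270 for Gp93, above the Schneider's libraries at 24314 and 30121 and at 4899 and 5829.

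Both members (2 of 2) were thus called higher, in a table where 742 of 1756 tested genes (42.3%) were called higher in KRB and 942 (53.6%) lower. The table is a selection: in the authors' own comparison of the same libraries, no row has a p of 0.05 or more or a log2 fold change between -1 and 1. The calls and the lack of overlap between the media are therefore no independent evidence, and such a share of calls is a property of the table. How many of all tested genes lacked overlap was not counted. Reads on the listed genes came to 1957713 and 2801713 in the KRB libraries, against 1108029 and 2414465 in the Schneider's libraries, and the full depth is unknown. In RNA from whole cultures, more RNA in every cell and RNA from more of the cells cannot be told apart.

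Within the genes called higher, the rises of both chaperones were small and their levels high. The median log2 fold change of the 742 genes was 1.73 and the smallest was 1.15. Among them, 128 (17.3%) had a smaller value than Hsc70-3, and 23 (3.10%) a smaller one than Gp93. By raw reads, Hsc70-3 ranked 3rd of the 2049 listed genes in both KRB libraries, against 5th in Schneider's replicate 1 and 3rd in Schneider's replicate 2. Gp93 ranked 53rd and 60th in KRB, against 57th and 52nd in Schneider's medium.

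**Figure D2:**
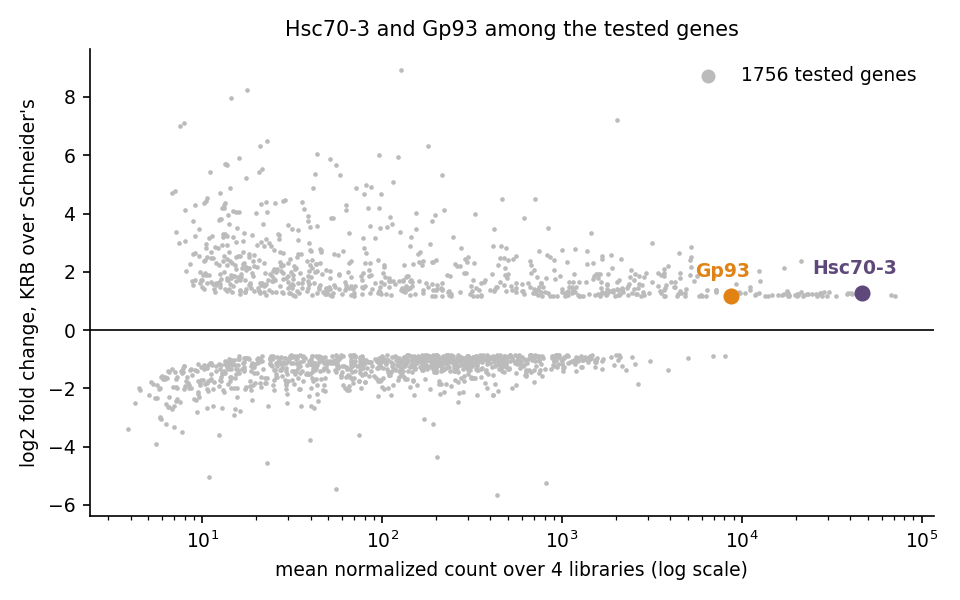
Log2 fold change (KRB over Schneider's) against the mean normalized count (log axis) for the 1756 tested genes, with Hsc70-3 and Gp93 in colour. The band around 0 is empty, as the rows were chosen by their change, and Hsc70-3 (1.29) and Gp93 (1.17) lie near the lower edge of the rises and towards the high end of the counts.

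As shares of the reads on listed genes, Hsc70-3 took 2.34% (exact Clopper-Pearson 95% interval 2.32% to 2.36%) and 2.49% (2.47% to 2.51%) in KRB, against 1.80% (1.77% to 1.82%) and 2.10% (2.08% to 2.12%) in Schneider's medium. These shares still separated the media. Gp93 took 0.525% (0.515% to 0.535%) and 0.360% (0.353% to 0.367%) in KRB, against 0.362% (0.351% to 0.373%) and 0.406% (0.398% to 0.414%) in Schneider's medium. Here KRB replicate 1 lay above both Schneider's libraries and KRB replicate 2 below both, with an interval that overlapped that of Schneider's replicate 1, so that the share of Gp93 did not separate the media. Such intervals describe the error of counting alone and leave out the spread between replicates. They also treat reads as independent, which reads copied from 1 molecule are not.

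The size of the rise depended on how the libraries were scaled. The geometric mean of the reads in KRB was 1.78 times that in Schneider's medium for Hsc70-3 and 1.62 times for Gp93. The fold change is this ratio over the ratio of the library sizes. That ratio, KRB over Schneider's medium, was 0.726 with TMM, 1.43 with total counts, 0.530 with upper-quartile factors and 0.436 with relative log expression factors. Total counts here are the reads on the tested genes, not the full depth of a library. With total counts, Hsc70-3 was at 0.31 (standard error 0.13) and Gp93 at 0.20 (standard error 0.20) on the log2 scale, and the quasi-likelihood test of edgeR gave adjusted p = 0.0753 and 0.372. Under that scaling, the median log2 fold change of all tested genes also moved, by -0.97. With upper-quartile factors the values were 1.75 for Hsc70-3 and 1.63 for Gp93, and with relative log expression factors 2.03 and 1.91, where all tested genes moved by 0.46 and 0.74 in the median. Both genes were called higher under these scalings, and the direction was the same under each. Which scaling comes closest to the RNA content of the cells was not tested, since unlisted genes were not analysed here. The sizes and adjusted p-values with TMM rest on its presumption that most compared genes are unchanged, although every row was selected for change.

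Single libraries moved these values less. When 1 library at a time was left out, the log2 fold change ranged from 0.98 to 1.58 for Hsc70-3 and from 0.89 to 1.36 for Gp93, and both genes were called higher in each of these fits.

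**Figure D3:**
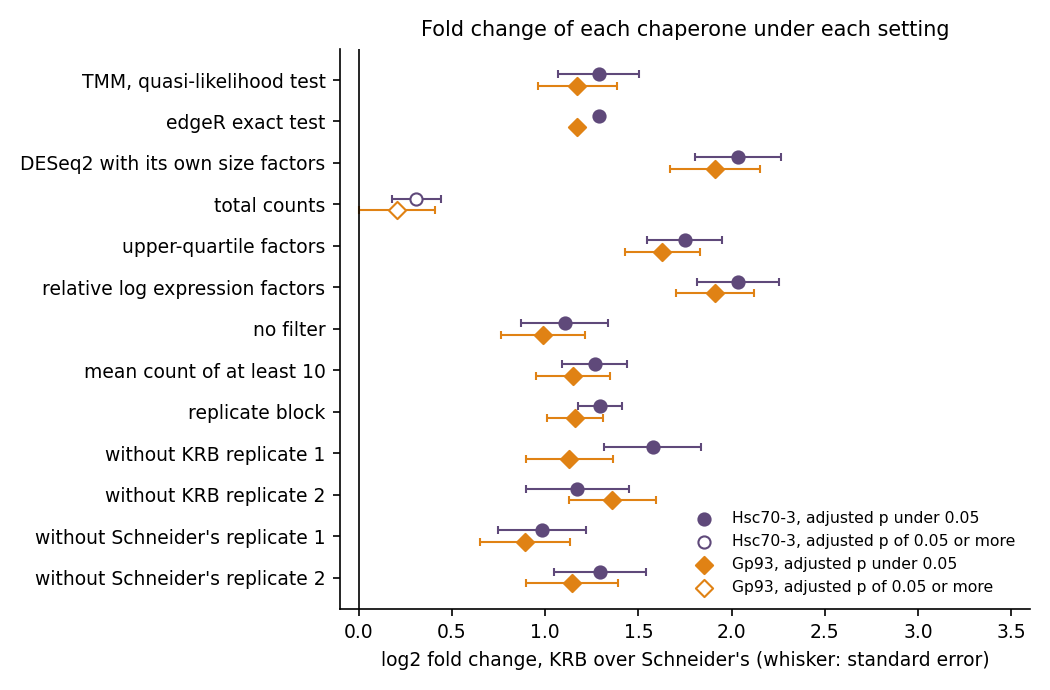
Log2 fold change (KRB over Schneider's) for Hsc70-3 (circles) and Gp93 (diamonds) under each setting, with standard errors where the test gives one, and with open symbols where the adjusted p was 0.05 or more. The open symbols, at 0.31 and 0.20, belong to scaling by total counts of the tested genes. The other values lie between 0.89 and 2.03.

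The balance between the chaperones does not depend on the scaling, because both are read in the same library. Gp93 made up 18.3% (18.0% to 18.7%) and 12.6% (12.4% to 12.9%) of the reads on both genes in KRB, against 16.8% (16.3% to 17.3%) and 16.2% (15.9% to 16.5%) in Schneider's medium (exact Clopper-Pearson 95% intervals). The Schneider's libraries lay between the KRB libraries, so the media overlapped, and the KRB replicates differed by far more than counting error. The log2 ratio of Gp93 to Hsc70-3 changed by -0.13 in KRB relative to Schneider's medium, less than the SD of 0.318 between replicates (exact two-sided permutation p = 1, where 2 libraries against 2 cannot go below 0.333). This difference had no stable sign, since it was 0.19 without KRB replicate 2 and -0.45 without KRB replicate 1. A difference between the rises of both genes was thus not detectable with these replicates.

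The spread of Gp93 in KRB can be read against that of other genes. Its normalized counts in the KRB libraries differed by 0.44 on the log2 scale, and 84.4% of the 937 tested genes whose counts averaged 100 or more differed by less. In Schneider's medium its libraries differed by 0.25, more than 54.7% of these genes. For Hsc70-3, the same differences were 0.20 in KRB and 0.31 in Schneider's medium, above those of 53.6% and 62.5% of the genes. The replicate differences of Hsc70-3 thus lay near the middle of the table in both media, and that of Gp93 in KRB lay towards its upper end.

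Per kilobase of exon, Hsc70-3 was the more abundant chaperone RNA in every library. It had 17250 and 19780 normalized counts per kilobase in KRB, against 6775 and 8393 in Schneider's medium. Gp93 had 4893 and 3615 normalized counts per kilobase in KRB, against 1724 and 2052 in Schneider's medium. The level of Hsc70-3 was thus 3.53 and 5.47 times that of Gp93 in KRB, against 3.93 and 4.09 times in Schneider's medium, a mean of 4.25 ± 0.846 (SD over the 4 libraries). With the longest transcript of each gene in place of all annotated exons, the mean was 4.79.

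The genes whose pattern over the 4 libraries was most like that of each chaperone were not the same. Likeness was the Euclidean distance between centred log2 normalized counts, over the 936 other tested genes with counts of 100 or more on average. The 5 genes nearest to Hsc70-3 all encode ribosomal proteins. They were RpS28b, RpS30, RpS16 and RpS26 of the small subunit and RpL41 of the large subunit, at distances of 0.0579 to 0.0700. Hsc70-3 had 1.67 and 1.59 reads per read of RpS28b in KRB, against 1.65 and 1.67 in Schneider's medium, a ratio that stayed nearly level over the libraries. The 5 genes nearest to Gp93 were further away, at distances of 0.187 to 0.276. They were CG9314, Shroom, which encodes an actin-binding protein, Rhp, which encodes the fly Rhophilin, Sp7, which encodes a serine protease, and the non-coding RNA CR44953. Gp93 had 80.9 and 71.6 reads per read of CG9314 in KRB, against 85.4 and 76.0 in Schneider's medium. The chaperones lay 0.469 apart, which placed Gp93 146th among the neighbours of Hsc70-3 and Hsc70-3 80th among those of Gp93. These distances describe 4 libraries and were not tested.

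Lists were drawn up of genes of ER folding, transport, degradation and stress, of RNA targets of Ire1, and of Hsp70 and Hsp90 genes outside the ER. Of 111 genes in 10 lists, 11 had a row, and 10 of these were tested. The share of all genes that had a row was not determined here. Of the 17 chaperones and co-chaperones of the ER lumen, Hsc70-3 and Gp93 were the members with a row. The median log2 fold change of the list, 1.23, thus restates these 2 genes. Over all tested genes of the selected table, the median was -0.92 with TMM. This reference moved with the scaling, to -1.895 with total counts and -0.179 with relative log expression factors. None of the 10 genes of disulfide formation, 20 of translocation into the ER, 8 of the N-glycosylation transferase, 13 of ER-associated degradation, 10 of the COPII coat and ER exit sites and 2 of the Hsp90 family outside the ER had a row. Those genes were not analysed here, and the lack of a row in a selected table does not show that a gene was unchanged.

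Of the 16 sensors and regulators of the UPR and of related stress pathways, 3 had a row, and all 3 were called higher, with a median log2 fold change of 1.37. In the whole selected table, 42.3% of the tested genes were called higher and the median was -0.92, both with TMM. Gadd45, a stress-induced gene, had 981 and 1143 normalized counts in KRB, against 488 and 339 in Schneider's medium, and a log2 fold change of 1.37 (standard error 0.22). The pseudokinase gene trbl had 2429 and 2658 normalized counts in KRB, against 1029 and 1037 in Schneider's medium, and a log2 fold change of 1.30 (standard error 0.15). Both were close in size to Hsc70-3 and without overlap between the media, in rows selected for their change. Thor, the fly 4E-BP that restrains cap-dependent translation, had 69.0 and 27.5 normalized counts in KRB, against 8.55 and 21.4 in Schneider's medium. Its log2 fold change of 1.57 (standard error 0.60), at an adjusted p of 0.0410 in the edgeR test, rested on few reads and was no longer called without KRB replicate 1 (0.99) or without Schneider's replicate 1 (0.98), nor without the filter on low counts (1.38). With total counts, none of Gadd45, trbl and Thor was called, as for the chaperones themselves.

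Of the 12 Hsp70 genes outside the ER, 4 had a row and 3 were tested, of which 1 was higher and 1 lower, where 42.3% of all tested genes were called higher and 53.6% lower. The median log2 fold change of the 3 was -1.13, against -0.92 over all tested genes. Hsp68, a stress-inducible Hsp70 of the cytosol, had 6260 and 7444 normalized counts in KRB, against 2136 and 3541 in Schneider's medium. Its log2 fold change of 1.27 (standard error 0.27), at an adjusted p of 0.00504 in the edgeR test, was near that of Hsc70-3 with TMM. It was 0.79 and still called without Schneider's replicate 1, and 0.30 and not called with total counts. The heat-inducible Hsp70 copies had few reads in every library. Hsp70Ba had 6 and 3 reads in KRB, against 8 and 48 in Schneider's medium, and a log2 fold change of -1.92 (standard error 0.70). It was not called without KRB replicate 1 (-2.49), without KRB replicate 2 (-1.32) or without Schneider's replicate 2 (-1.02), nor with upper-quartile factors (-1.46), relative log expression factors (-1.17) or DESeq2 (-1.06). Hsp70Bbb had 9 and 12 reads in KRB, against 11 and 63 in Schneider's medium, and passed the test only without Schneider's replicate 1 (-1.77), with total counts (-2.08) or with a replicate block (-1.07). Hsp70Aa had 0 reads in both KRB libraries, against 1 and 6 in Schneider's medium, and was below the filter on low counts. These copies are nearly identical, so the division of reads between them is uncertain.

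**Figure D4:**
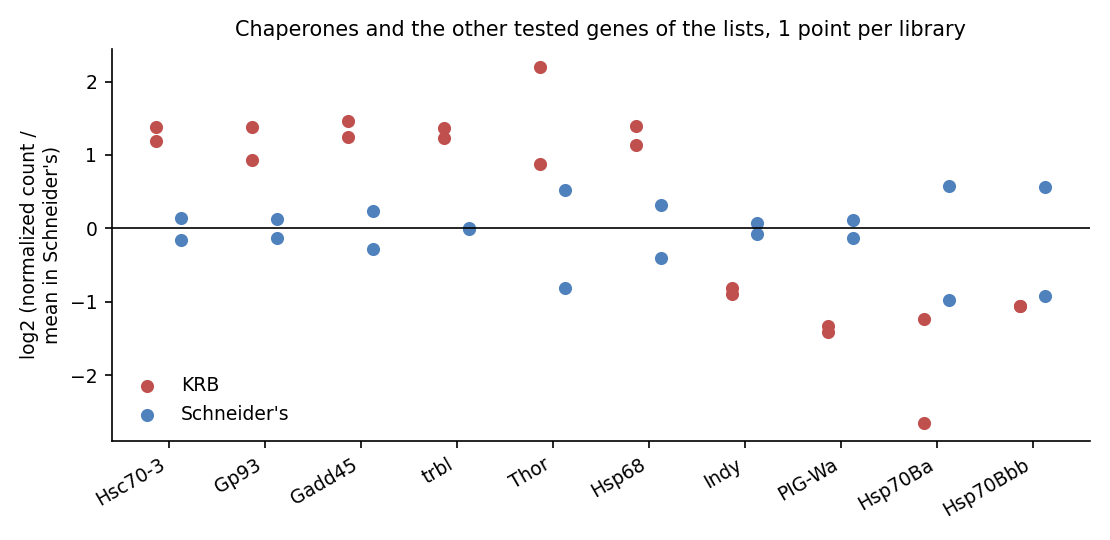
Normalized count of each library on a log2 scale relative to the mean in Schneider's medium, for Hsc70-3, Gp93 and the other tested genes of the lists (1 point per library, KRB left of Schneider's). Hsc70-3, Gp93, Gadd45, trbl, Thor and Hsp68 have both KRB points above both Schneider's points, and Indy, PIG-Wa and the sparsely counted Hsp70Ba and Hsp70Bbb have both below. All these rows were selected for their change between the same libraries.

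Ire1 can also cleave RNAs that are translated at the ER, and the study followed 3 targets of such decay, of which Indy and PIG-Wa had a row. Both were called lower, as were 53.6% of all tested genes, and their median log2 fold change of -1.11 stood beside -0.92 over all tested genes. Indy, which encodes a citrate transporter of the cell membrane, had 1386 and 1469 normalized counts in KRB, against 2707 and 2442 in Schneider's medium, and a log2 fold change of -0.85 (standard error 0.15). PIG-Wa, an enzyme gene of GPI anchor synthesis, had 27.1 and 25.4 normalized counts in KRB, against 62.3 and 73.8 in Schneider's medium, and a log2 fold change of -1.38 (standard error 0.30). Indy was not called without KRB replicate 1 (-0.62) or with upper-quartile factors (-0.40), and with relative log expression factors neither Indy (-0.12) nor PIG-Wa (-0.63) was called. Whether decay by Ire1 took place was not tested.

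Indy, called lower with TMM, gave a reading of the chaperones that is free of the scaling, chosen after the values were seen. Hsc70-3 had 44.7 and 48.3 reads per read of Indy in KRB, against 8.98 and 12.3 in Schneider's medium. Gp93 had 10.03 and 6.99 reads per read of Indy in KRB, against 1.81 and 2.39 in Schneider's medium. Neither ratio overlapped between the media, and on the log2 scale they differed by 2.14 for Hsc70-3 and 2.01 for Gp93. Indy and both chaperones were all selected for their change in these same libraries, so the separation of the ratios follows from the selection and is no independent evidence. The ratios state that the chaperone RNAs and Indy RNA parted in KRB and not how much each changed per cell.

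**Figure D5:**
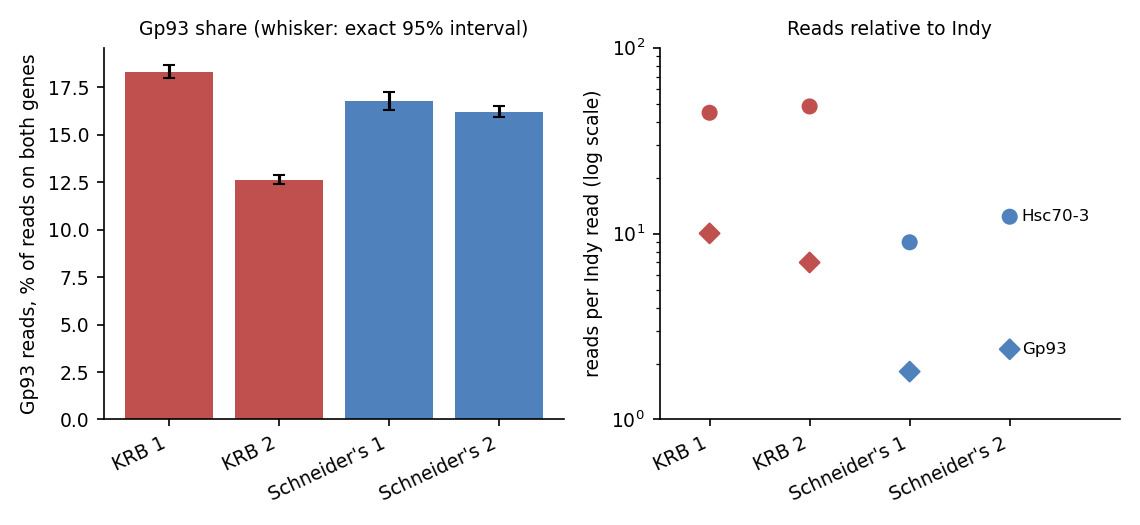
Measures within a library, which no scaling changes, for KRB replicates 1 and 2 and Schneider's replicates 1 and 2. Left, Gp93 reads as a percentage of the reads on both chaperones with exact 95% intervals, where the Schneider's libraries (16.8% and 16.2%) lie between the KRB libraries (18.3% and 12.6%); right, reads of each chaperone per Indy read on a log axis, where both KRB libraries lie above both Schneider's libraries.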

How the data were processed

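RNA of S2 cells depleted of ribosomal RNA was sequenced from 2 replicates per medium. The authors mapped the reads to Dm6 with STAR 2.4.0.1. Reads per transcript were then counted by a script of theirs with the Ensembl annotation. They deposited unnormalized counts under gene symbols. Beside the counts, the authors deposited log2 fold changes and p-values of their comparison with edgeR 3.24.3, which were read only to test how the rows had been selected. Here the counts of 2049 genes went into edgeR 4.0.16 (R 4.3.3), with filterByExpr (293 genes left out), TMM, a two-sided quasi-likelihood F-test of the medium without covariates, and p-values adjusted by the Benjamini-Hochberg method over 1756 genes, at a threshold of 0.05. The common biological coefficient of variation was 0.207. For a normalized count, the count was divided by the library's effective size (TMM factor times the reads on tested genes), with sizes set to a geometric mean of 1. The standard error is the log2 fold change over the square root of F. Profile distances used log2(normalized count + 0.5). Positions and exon lengths are from the Ensembl annotation of BDGP6, the same assembly as Dm6.

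Alternative settings were the exact test of edgeR, DESeq2 1.42.0, 3 other scalings, no filter, a mean count of at least 10, a replicate block and each library left out in turn; where that left 1 library in a medium, it was assumed to vary like the other medium. The genes named were both chaperones, their 5 nearest profiles each and every listed member of the lists. The members and lists were chosen with earlier results of these data known. Counts were also simulated with 200 genes changed, equally often up and down, and all others unchanged. Of 1692 genes tested there, 54.6% of the changes of 1 and 99.0% of those of 2 on the log2 scale were recovered, with 7 unchanged genes called. The real rows were all selected for change, so the simulation does not give the error rate of the fit or of TMM on them. Figures were made with Python 3.11.15 and matplotlib 3.10.9.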

Additional observations from a re-analysis of the deposited data

How the results depend on the processing

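Scaling was the choice that moved the results most. With total counts of the tested genes, the log2 fold change fell to 0.31 for Hsc70-3 and 0.20 for Gp93, and both calls were lost. Under this scaling, 335 listed genes were higher in place of 742, and 0 of the other list genes in place of 4. In place of 942, 547 genes were lower with upper-quartile factors, 178 with factors from relative log expression and 89 in DESeq2, and in place of 3, 1, 0 and 0 of the other list genes. These counts of 0, in edgeR's quasi-likelihood test and in DESeq2, were also 0 at an unadjusted p under 0.05, while edgeR's exact test with TMM called 4 of the other list genes higher and 3 lower. The scalings change the library sizes by construction, and DESeq2 changes the test as well. With each library left out in turn, 530 to 938 genes and 1 to 4 of the other list genes were lower. Both chaperones kept their direction under each alternative and their call under all but total counts. Over edgeR's tests and DESeq2, the adjusted p ran from 8.79e-26 to 0.0753 for Hsc70-3 and from 2.91e-13 to 0.372 for Gp93. The lowest values came from the replicate block, which fits more terms to the same 4 libraries, and are no measure of a stronger effect. The other tested list genes kept their direction in all 96 values and their side of the threshold in 74. With a replicate block, the log2 fold change was 1.29 for Hsc70-3 and 1.16 for Gp93, and 751 genes were higher and 1004 lower. Same-numbered libraries deviated from their group means with a correlation of 0.263, but nothing in the labels ties them beyond the number. With 2 replicates per medium, both pairs give this same value, so it is 1 estimate. Replicates differed by more than sampling noise, with a chi-square per degree of freedom of 15.6 in KRB and 25.1 in Schneider's medium. Counting error was far below the spread between replicates for both chaperones.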
